A study of Danio rerio with 9 samples.

Results

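The transcripts described here are those whose level in zebrafish (Danio rerio) embryos first rose at the sphere stage, a late blastula stage in which the cell mass sits rounded on the yolk. A probe belonged to the set when its stage signal at sphere lay above the 95th percentile of that array's blank spots, and when its log2 ratio of stage over pool at sphere was at least 1 (2-fold) above that at both the 64-cell and the high stage. For this selection the ratio was taken from spot means minus background means, with the array median subtracted. Of 16176 oligonucleotide probes, 187 met the rule. They made up 2.03% of the 9193 probes above the blank spots at sphere, a share that the rule itself sets. The files and the gene tables used here pair none of the 187 with a gene name, so neither function nor sequence can be given, and single probes are named by their ID.

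The embryos were uninjected wild-type zebrafish of outbred stock, raised at 28.5 °C and taken from 1 clutch. RNA of 30 to 50 pooled embryos was measured at each of 9 stages. Cleavage and blastula stages were 64-cell, high and sphere, and the later ones ran through epiboly (30% and 50%), shield and further epiboly (75% and 90%) to tailbud. Each stage was measured on 1 array with 2 dyes, on which stage RNA carried Cy5 and a pool of equal amounts of RNA of all 9 stages carried Cy3. No stage had a replicate. Array numbers ran with the stages, so stage and order of the arrays cannot be told apart.

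Fish eggs are stocked with maternal RNA, on which cleavage runs. The embryo's own genome is broadly switched on at the mid-blastula transition, around the high stage, and the first zygotic transcripts include those of transcription factors, of secreted signals that pattern the embryo, and of a microRNA family that marks maternal RNA for decay. Epiboly, in which the blastoderm thins and comes to cover the yolk cell, follows sphere, and gastrulation runs from 50% epiboly to tailbud.

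The label of the set was first held against the signals. At 64-cell 94 of the 187 probes (50.3%) exceeded the blank spots and at high 83 (44.4%) did, against 63.7% and 56.3% of all probes. At neither stage did 84 of the 187 do so, and 103 were above the blanks in at least 1 of the 2, with 74 in both. More than 1 in 2 of the set therefore had a signal above the blanks in at least 1 stage before sphere. At high, the stage just before sphere, this held for 83 of the 187, fewer than 1 in 2. The ratio at high was above that at 64-cell for 152 probes, by a median of 0.33 on the log2 scale. In 24 probes it was at least 1 higher at high than at 64-cell, and 13 of these exceeded the blanks at high, so that their first rise came before sphere. Among all 16176 probes 58 met both conditions. No probe of the set had a ratio at 64-cell that was 1 or more above that at high.

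The values that chose the set are given as a description. The ratio at sphere exceeded the higher of the 2 earlier stages by 1.00 to 4.36 on the log2 scale, with a median of 1.67. A difference of at least 2 was found in 65 probes and of at least 3 in 18. Just inside the threshold lay probes with differences of 1.005, 1.010, 1.018 and 1.024, and just outside it probes with 0.984, 0.987, 0.988 and 0.9998. The threshold thus cuts through a continuous range of values. Only 5 of the 187 probes were printed in 2 spots. In 2 of these 5 both spots reached a difference of 1, and in the other 3 only 1 spot did. The differences of the 10 spots ran from 0.70 to 3.93, and the 2 spots of a probe lay 0.21 to 1.62 apart.

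The rise was then traced to the dye channels, each quantile normalized between arrays. The same arrays chose the set, so these values are a description and not a test. In the Cy5 channel, which carried the stage RNA, sphere lay 0.70 to 8.77 above the mean of 64-cell and high on the log2 scale, with a median of 1.73, and by at least 1 in 173 of 187 probes. In the Cy3 channel, where the same pool was hybridised throughout, the differences ran from -1.21 to 7.75, with a median of -0.004. Of the 187 probes, 179 lay within 0.5 of no difference. A few probes departed from this. On the sphere array the pool signal of 5 probes differed at least 2-fold from its median over the other 8 arrays, higher in 4 and lower in 1. Over all 16176 probes 51 differed in this way at sphere, a smaller share than 5 of 187. The sphere array is also one of those that chose the set.

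The largest of these departures were in a pair of neighbouring spots in 1 row of 1 print block. Their pool signals on the sphere array were 50350 and 65288, against at most 507 and 565 on any other array, and their stage signals there were 51078 and 62428, against at most 246 and 393 elsewhere. These were differences in both channels of a single array, at spots side by side. Of the 28 other probe spots within 2 rows and columns of the pair, 3 also had a pool signal at least 2-fold higher there. Without the 5 probes the set holds 182. Of the counts below, those of probes above the blanks after sphere, of the highest stage and of the trend are also given without them.

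Signals after sphere showed at which later stages the transcripts were detected, which does not separate lasting RNA from newly made RNA. Of the 187 probes, 167 exceeded the blank spots at all 6 later stages, 14 at some of them and 6 at none. Without the 5 probes of departing pool signal, 166 of 182 did so at all 6 and 3 at none. The number above the blanks was 179 at 30% and 174 at 50% epiboly, 170 at shield, 178 at 75% and 177 at 90% epiboly, and 177 at tailbud. These are 90.9% to 95.7% of the set, while between 40.4% (shield) and 69.7% (tailbud) of all probes exceeded the blanks. The rule asked for a signal above the blanks at sphere, which 56.8% of all probes had. A larger share of the set at later stages is thus partly given by the rule. The median Cy5 signal of the set was 602.5 at 64-cell, 383 at high and 1420 at sphere, then 3396 at 30% and 1925 at 50% epiboly, 1396 at shield, 3579 at 75% and 3643 at 90% epiboly, and 2761.5 at tailbud. These raw signals carry the brightness of each array. Set against the array's own blank limit, the median signal was 1.01 times that limit at 64-cell, 0.91 times at high, 3.32 times at sphere and 6.60 times at 30% epiboly, and from 50% epiboly on it stayed between 3.43 and 6.86 times. Of the 6 probes above the blanks at no later stage, 3 were among those with a departing pool signal, and the other 3 had sphere signals of 511 to 1074.5, against a blank limit of 428.35.

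The course over all stages is given as log2 ratio of stage over pool after normexp background correction and loess, the scale used from here on. The median of the 187 probes was -2.84 at 64-cell, -2.38 at high and -0.65 at sphere, then 0.61 at 30% and 0.33 at 50% epiboly, 0.42 at shield, 0.28 at 75% and 0.10 at 90% epiboly, and -0.12 at tailbud. The median of all probes lay between -0.02 and 0.01 at these stages, since loess within arrays brings it near 0 by construction. Levels, rises and falls on this scale are therefore relative to the other probes of an array. Sphere was thus a midpoint, and the highest median came 1 stage later, after which the level drifted down. The pool holds RNA of all stages, so a probe that is low early lies above it at some later stage by construction. Differences between stages do not depend on the pool where its signal is steady over the arrays, which was not so for every probe. In whole embryos, fewer cells with a transcript and less of it per cell cannot be told apart.

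**Figure D1:**
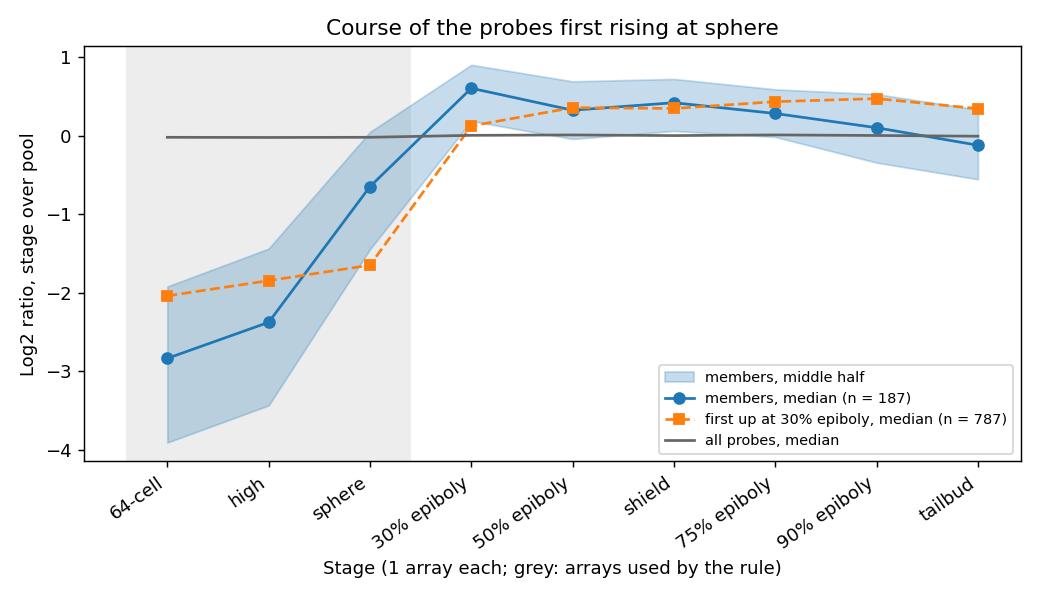
Median log2 ratio of stage over pool (normexp and loess) at the 9 stages, 1 array each, for the 187 probes first rising at sphere (blue, with the range from the 25th to the 75th percentile shaded), 787 further probes first rising at 30% epiboly by the same rule moved 1 stage on (orange) and all probes (grey line). The blue median reaches 0.61 at 30% epiboly and ends at -0.12 at tailbud, while the orange one ends at 0.35.

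The spread among the probes changed along the series. The 25th to 75th percentile of the ratios ran from -3.91 to -1.92 at 64-cell, from -3.44 to -1.44 at high and from -1.44 to 0.05 at sphere. At 30% epiboly it had narrowed to 0.19 to 0.91, and at tailbud it was -0.55 to 0.33. The lowest single value of the set was -6.51, at 64-cell, and the highest 3.43, at sphere. The probe with this highest value had ratios between -0.25 and 0.07 at every other stage, so its rise rests on the sphere array alone. Ratios of the first 2 stages rest on signals near the blank limit in many probes and are poorly measured there. On this scale 159 of the 187 probes kept a difference of at least 1 between sphere and the higher of the earlier stages, and in the other 28 it was smaller, the lowest being 0.41.

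Most of the set had not reached its highest level at sphere. The highest later ratio lay a median of 1.51 above sphere and 3.22 above the higher of 64-cell and high. Sphere was within 1 of the later maximum, or above it, in 56 probes, and more than 2 below it in 66. At 30% epiboly 119 of 187 probes were at least 2-fold above their sphere level and 9 at least 2-fold below it, against 7.44% and 6.52% of the 16108 probes tested. At 50% epiboly 96 were at least 2-fold above sphere and 13 below, against 10% and 9.13% of all, and at shield 103 and 14, against 9.78% and 7.85%. At 75% epiboly the counts were 89 above and 15 below, against 11.4% and 11.0%, and at 90% epiboly 80 and 20, against 12.7% and 12.5%. At tailbud 71 were above and 25 below, against 13.7% and 13.0% of all. Since the rule used the sphere array, these counts describe the course and are not a test. The highest of all 9 values fell at 30% epiboly in 75 probes, at 75% epiboly in 23, at 50% epiboly in 21, at shield and tailbud in 19 each, at 90% epiboly in 15 and at sphere in 15.

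Among the 15 probes that were highest at sphere, 5 had the departing pool signal and 10 did not. The 10 had a median ratio of -0.49 at 64-cell, -0.15 at high and 1.10 at sphere, then 0.27 at 30% and -0.24 at 50% epiboly, and -0.56 at tailbud. Their earliest ratios lay nearer the pool level than the set's medians did, and 5 of them exceeded the blanks at tailbud and 3 at all 6 later stages.

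Only the 6 later arrays are independent of the rule, and on them the stage trend was tested. The slope of the ratio on stage order was fitted with limma for 16108 probes, with 4 residual degrees of freedom, two-sided, Benjamini-Hochberg adjustment over all of them and a threshold of 0.05, and the fitted change is the slope multiplied by the number of steps from 30% epiboly to tailbud. The error is the scatter of single arrays around a line and does not hold the spread between clutches. All 187 probes passed the filter on dim probes.

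From 30% epiboly to tailbud the set went down more often than up. Sphere was not part of this fit. From sphere to tailbud the median difference was upward, 0.63 on the log2 scale. Of the 187 probes, 77 fell and 17 rose from 30% epiboly to tailbud (limma, adjusted p under the threshold), and 93 passed in neither direction. These are 41.2% and 9.09% of the set, against 11.1% of all tested probes falling and 9.78% rising. Rising probes were thus about as frequent in the set as elsewhere. The median fitted change was -0.67 on the log2 scale, with a 25th to 75th percentile of -1.36 to 0.08 and a median standard error of 0.27, against a median of -0.02 over all tested probes. The change was below 0 in 132 probes, or 70.6%, against 52.3% of all.

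These probes were brighter than most: the median pool signal was 11.01 on the log2 scale, against 9.28 for all probes, and the part of brightness in the counts was not tested. Among the 9006 other probes above the blanks at sphere, 16.9% fell and 9.97% rose. Left without the 5 probes of departing pool signal, the counts were 76 falling and 17 rising. Without the 30% epiboly array 62 fell and 10 rose, against 6.59% and 5.77% of all tested probes in that fit. With the stage channel alone, tried later as a further setting with results in view, 49 fell and 9 rose, against 4.12% and 4.29% of all tested probes in that fit.

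The pool channel, quantile normalized between arrays, was put through the same fit as a control. With limma it gave 0 calls at the adjusted threshold in either direction, in the set and over all probes. An unadjusted limma p under 0.05 was found in 11 of the 187 probes, a larger share than the 2.41% of all tested probes. The ratio gave 94 adjusted limma calls in the set, against 20.8% of all tested probes, but the ratio is another measure than a single channel. The stage channel alone, normalized like the pool channel, gave 58 adjusted limma calls in the set, against 8.41% of all tested probes. The median fitted change of the 187 in the pool channel was -0.01, and in 2 of them it was at least 1 in either direction.

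The 77 falling probes had a median ratio of -2.76 at 64-cell, -2.29 at high and -0.35 at sphere, then 0.95 at 30% and 0.62 at 50% epiboly, 0.64 at shield, 0.10 at 75% and -0.32 at 90% epiboly, and -0.60 at tailbud. Their highest later value was at 30% epiboly in 58 of them, at 50% epiboly in 13 and at shield in 6. A fall over these same arrays chose the 77 probes, so an early highest value is largely given by the choice. Their fitted changes ran from -5.57 to -0.67, with a median of -1.52, and were at least 2-fold in 65 and at least 4-fold (2 on the log2 scale) in 21. The fall did not take most of them below detection, as 72 of the 77 still exceeded the blanks at tailbud.

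The 17 rising probes were lower at first, with a median ratio of -3.67 at 64-cell, -3.17 at high and -1.74 at sphere, then -0.55 at 30% and -0.33 at 50% epiboly, -0.15 at shield, 0.36 at 75% and 0.66 at 90% epiboly, and 0.52 at tailbud. The median of the 17 climbed from 64-cell to 90% epiboly, with sphere as an early step. Not every probe followed it: some, CGENXEB_456000637_0 among them, were lower at 30% epiboly than at sphere. Fitted changes lay between 0.63 and 4.30, with a median of 1.15, and 11 of the 17 were at least 1. The highest later value was at tailbud in 11, at 90% epiboly in 4 and at 75% epiboly in 2. A late highest value is likewise largely given by the choice of rising probes.

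The 93 probes called in neither direction had a median of -0.75 at sphere, then 0.41 at 30% and 0.29 at 50% epiboly, 0.36 at shield, 0.46 at 75% and 0.39 at 90% epiboly, and 0.11 at tailbud. As a group they kept a plateau from 30% to 90% epiboly. A missed threshold does not show that a probe was constant, and single fitted changes among them ran from -1.38 to 1.47.

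**Figure D2:**
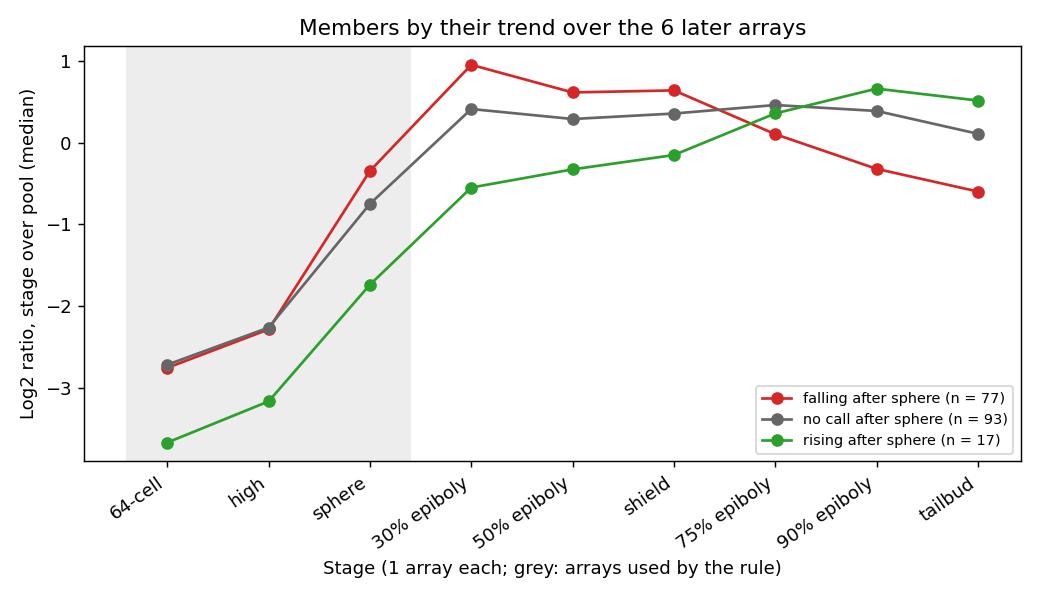
Median log2 ratio of stage over pool at the 9 stages for the probes that fell (77), passed in neither direction (93) or rose (17) over the 6 later arrays. The falling median drops to -0.60 at tailbud after 0.95 at 30% epiboly, and the rising one climbs to 0.52 after -0.55.

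The 2 largest falls and the 2 largest rises past the threshold were chosen by rule for a closer description. CGENXEB_456013104_0 had log2 ratios of -3.52 at 64-cell, -0.50 at high and 2.84 at sphere, then 1.33 at 30% and -1.22 at 50% epiboly, -0.70 at shield, -3.08 at 75% and -4.01 at 90% epiboly, and -4.32 at tailbud. It was the one of the 4 that peaked at sphere, and it had already risen at high. Its Cy5 signal was 1286 at 64-cell, 3932 at high and 14660 at sphere, then 7727 at 30% and 1289 at 50% epiboly, 785.5 at shield, 1176 at 75% and 946.5 at 90% epiboly, and 707 at tailbud. The signal thus rose and fell between 64-cell and 50% epiboly and stayed above the blanks throughout.

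The fitted change of CGENXEB_456013104_0 over the 6 later arrays was -5.57 ± 0.59 (SE, 6 arrays; limma, adjusted p = 0.00030, range over the alternatives 0.00020 to 0.0078). Its pool channel was not steady: the quantile normalized Cy3 level was 11.10 at sphere, 11.65 at 30% epiboly and 13.15 at tailbud on the log2 scale, and at sphere it lay 1.21 below its median over the other arrays. In the stage channel alone the fitted change was -3.94. The image software flagged its spot on 2 arrays, at 50% and 90% epiboly.

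CGENXEB_456001058_0 kept a high level until shield and then fell. Its ratio was -3.56 at 64-cell, -2.14 at high and 0.53 at sphere, then 1.34 at 30% and 1.15 at 50% epiboly, 1.54 at shield, 0.16 at 75% and -1.61 at 90% epiboly, and -2.34 at tailbud. The drop came in the 3 arrays after shield, all of which lay below the 3 before. The fitted change was -4.00 ± 0.60 (SE, 6 arrays; limma, adjusted p = 0.0013, range over the alternatives 0.00028 to 0.021). Its Cy5 signal exceeded the blank limit at all 9 stages, by 1.04 times at 64-cell and 15.6 times at 30% epiboly, and no array flagged the spot.

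CGENXEB_456000637_0 rose at 2 separate times of the series. Its ratio was -3.09 at 64-cell, -2.33 at high and -0.14 at sphere, then -2.36 at 30% and -1.92 at 50% epiboly, -1.92 at shield, -0.99 at 75% and 0.91 at 90% epiboly, and 1.78 at tailbud. The Cy5 signal was 1220.5 at sphere, 2.85 times the blank limit, with 272 at high before it and 328 at 30% epiboly after it, both under the limit. It was again above the limit at 75% epiboly, by 1.03 times, and reached 6656 at tailbud, 16.5 times the limit. The high value at sphere rests on that single array, whose pool signal for this probe lay 0.06 below its median over the others. The fitted change was 4.30 ± 0.50 (SE, 6 arrays; limma, adjusted p = 0.00042, range over the alternatives 0.00016 to 0.024), with ratios of the first 3 of the 6 arrays from signals under the blank limit. Its spot was flagged at 64-cell.

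CGENXEB_456015050_0 was higher after shield than before it. Its ratio was -3.67 at 64-cell, -3.47 at high and -1.96 at sphere, then -0.92 at 30% and -0.92 at 50% epiboly, -0.60 at shield, 0.59 at 75% and 0.77 at 90% epiboly, and 0.80 at tailbud. Most of the later difference lay between shield and 75% epiboly, with little between 30% and 50% epiboly or between 90% epiboly and tailbud. Its fitted change was 2.12 ± 0.31 (SE, 6 arrays; limma, adjusted p = 0.0012, range over the alternatives 0.00022 to 0.0089). Its Cy5 signal exceeded the blank limit at all 9 stages, 2.16 times at 64-cell and 50.7 times at tailbud, and the spot was flagged on no array.

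**Figure D3:**
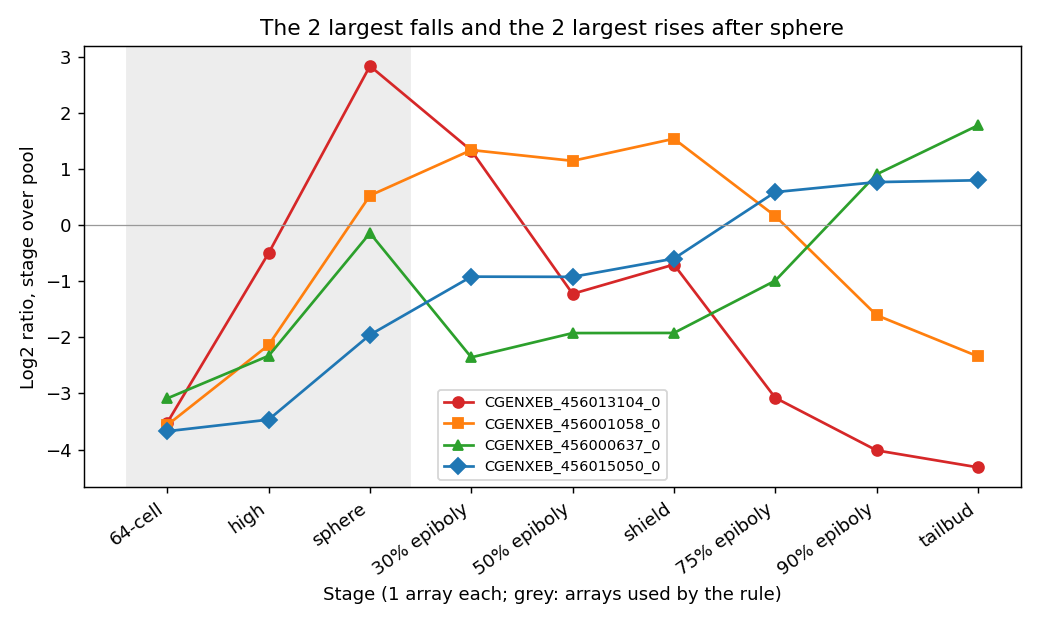
Log2 ratio of stage over pool at each of the 9 stages, 1 point per array, for the probes with the 2 largest falls (red circles, orange squares) and the 2 largest rises (green triangles, blue diamonds) over the 6 later arrays. The red probe peaks at 2.84 at sphere, and the green one returns to -2.36 at 30% epiboly before it reaches 1.78 at tailbud.

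Step by step, the decline of the set was spread over several steps between 30% epiboly and tailbud. On the log2 scale the median change was -0.17 at 50% over 30% epiboly and 0.03 at shield over 50% epiboly. It was -0.13 in the step to 75% epiboly, -0.16 in that to 90% epiboly, and -0.25 in the last, to tailbud. The median over all tested probes lay between -0.014 and 0.0079 in these steps. At least 2-fold lower than at the stage before were 12 probes at 50% epiboly (0.801% of all tested probes), none at shield (0.174%), 12 at 75% (1.46%) and 13 at 90% epiboly (0.484%), and 8 at tailbud (0.503%). At least 2-fold higher were 1 at 50% epiboly (0.646%), none at shield (0.155%), 6 at 75% (0.813%) and 2 at 90% epiboly (0.329%), and 1 at tailbud (0.590%). No single step carried the decline. Between single arrays no test was possible.

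The highest of the 6 later values was at 30% epiboly in 82 of the 187 probes (43.9%), against 23.1% of all tested probes, and in 80 of the 182 left without the departing pool signals. Tailbud held the highest later value in 21 (11.2%), against 21.7% of all. Over the 6 later arrays a probe's highest and lowest ratio lay a median of 1.12 apart, against 0.62 for all tested probes. In 116 of the set they lay at least 1 apart, and in 14 less than 0.5, against 19.9% and 34.9% of all. At tailbud 104 probes were at least 2 above the higher of 64-cell and high, and 46 were within 1 of it or below. The rule chose probes that were low at 64-cell and high, so these counts are partly given by the rule. They are a description, without a share over all probes beside them.

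**Figure D4:**
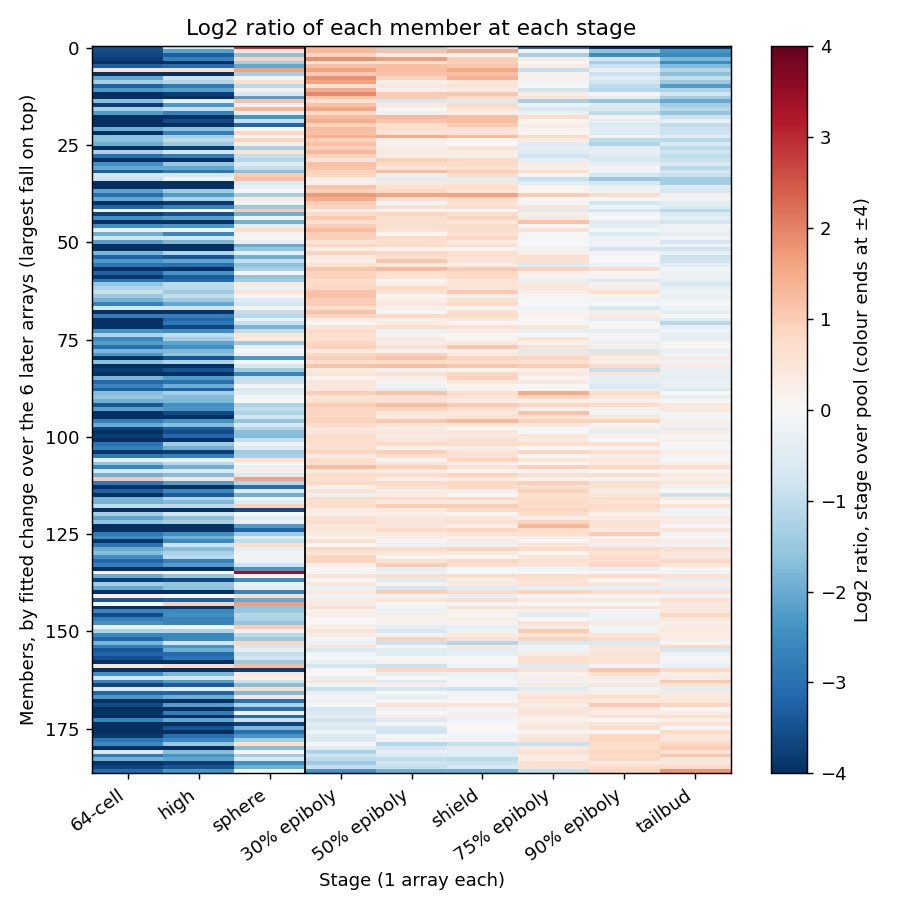
Log2 ratio of stage over pool of each of the 187 probes (rows, ordered by fitted change over the 6 later arrays with the largest fall on top) at each of the 9 stages (columns, 1 array each). The black line separates the 3 arrays used by the rule from the 6 used for the trend, and colours end at ±4.

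Falling probes were found both with and without an early signal. Of the 84 probes above the blanks at neither 64-cell nor high, 31 fell, 6 rose and 47 passed in neither direction, with a median fitted change of -0.60. Of the 103 above them in at least 1 of these stages, 46 fell, 11 rose and 46 passed in neither direction, with a median of -0.71. The first were dimmer at sphere, with a median Cy5 signal 1.93 times the blank limit, against 5.74 times for the second. The difference between these subsets was not tested.

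The later fate was also set against the size of the rise at sphere. Of the 65 probes with a rise of at least 2 by the rule's ratio, 32 fell and 3 rose, with a median fitted change of -0.89, and of the 122 with a smaller rise 45 fell and 14 rose, with a median of -0.42. Among the 18 with a rise of at least 3, 12 fell and none rose. Of the 24 probes with a ratio at high at least 1 above that at 64-cell, 10 fell and 2 rose. Only 13 of these 24 exceeded the blanks at high. These subsets were formed after the data were seen and their difference was not tested.

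The nearest set for comparison is made by the same rule moved 1 stage on: above the blanks at 30% epiboly, with a ratio there at least 1 above that at 64-cell, high and sphere. Of all 16176 probes 895 met this moved rule. Of the 187 probes first rising at sphere 108 (57.8%) met the moved rule as well, having risen again by 30% epiboly. They make up 12.1% of the 895. The 787 others had a median ratio of -1.65 at sphere, then 0.13 at 30% and 0.36 at 50% epiboly, 0.35 at shield, 0.44 at 75% and 0.47 at 90% epiboly, and 0.35 at tailbud.

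In this later set 86 of 787 probes fell (10.9%) and 203 rose (25.8%), with a median fitted change of 0.23, where the probes first rising at sphere had 41.2%, 9.09% and -0.67. Their highest later value was at 30% epiboly in 13.1%, against 43.9% of the sphere set. The 30% epiboly array was itself used to choose the later set. The 2 sets thus leaned opposite ways after 30% epiboly. The fits share the same arrays, and the difference between the sets was not tested.

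**Figure D5:**
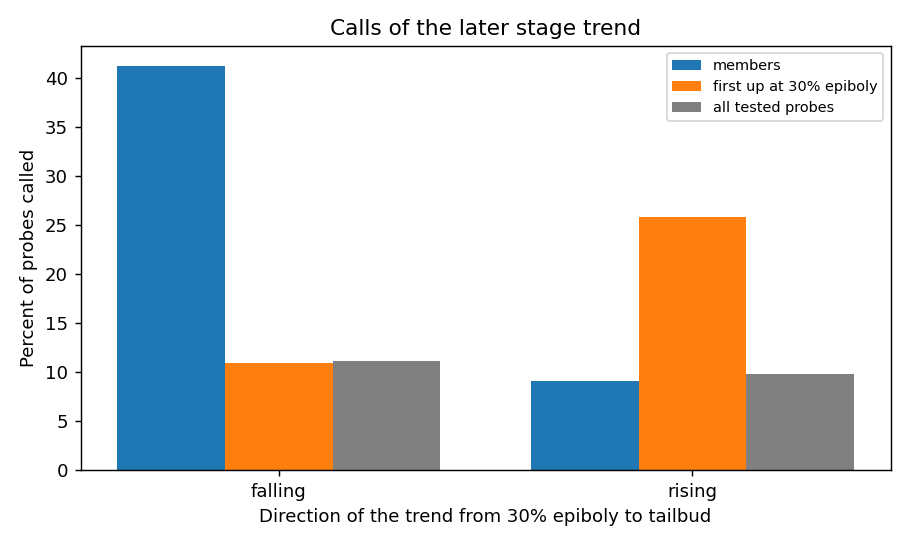
Percent of probes called falling or rising over the 6 arrays from 30% epiboly to tailbud (limma, adjusted p under 0.05). Bars give the 187 probes first rising at sphere (41.2% falling, 9.09% rising), the 787 first rising at 30% epiboly (10.9% and 25.8%) and all 16108 tested probes (11.1% and 9.78%).

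Quality marks of the spots were as follows. The image software flagged between 12 (at sphere and tailbud) and 29 (at 75% epiboly) of the 187 probes per array, 6.42% to 15.5%. At sphere, an array that chose the set, it flagged 6.42% of the set against 2.50% of all probes. The share was also larger in the set at 75% epiboly (15.5% against 11.5%) and 90% epiboly (13.4% against 9.38%). At every other stage it was smaller in the set, as at 30% epiboly with 8.56% against 19.0%. The sources used here do not say what the flag codes mean. Close to the scanner's upper limit were 0 to 7 probes of the set per array, most at 75% and 90% epiboly. The 192 spots of the set lay in all 32 print blocks of the array, with 1 to 12 per block.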

How the data were processed

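The deposited scanner tables (ImaGene, per the file headers) hold spot and local background intensity for 2 channels on a linear scale, not normalized by the authors. The deposited value table holds log2 ratios by the authors. They equalled the uncentred ratio of the membership rule within 0.001 for 99.2% of IDs at 64-cell, and served as an alternative after subtraction of column medians.

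Of 16896 spots per array, 16340 carried probes (16178 IDs, 2 of them accessions) and 262 were blanks. Spots of an ID were averaged. A ratio with a channel at or below background was undefined, which touched 70 IDs at the first 3 stages, 3 of them above the blanks at sphere. For the course and the trend, normexp (offset 50) was applied to spot means and background medians, followed by loess within arrays with control spots at weight 0 (limma 3.58.1, R 4.3.3). Probes entered the test if, on 3 or more arrays, the spot median of either channel lay more than 2 background SD above the background median.

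The trend fit was tested on simulated data of 16108 probes that kept their measured residual spread. Of 50 probes each with a change of 0.5, 1, 2 and 4 on the log2 scale, 0, 22, 45 and 49 were called, and 6 of 15908 unchanged ones. The noise was drawn independently for each probe and array, so a shift shared by many probes of 1 array was not simulated. The 6 calls therefore do not give the share of false calls in the measured data. The number of arrays limits the precision.

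The members, sets and alternatives were chosen with earlier results of these data known. Named probes are the 2 largest fitted rises and falls past the threshold. Gene lists and cell type markers could not be applied, since no ID of the set matched a gene in the tables used.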

Additional observations from a re-analysis of the deposited data

How the results depend on the processing

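Falling probes outnumbered rising ones under all 19 alternatives to the trend fit. Leaving out each of the 6 later arrays in turn gave 72 to 93 called probes of the set, 58 to 76 falling and 10 to 17 rising, against 94, 77 and 17. The 10 came without 30% epiboly. Over all tested probes in these fits 12.1% to 20.0% were called, 6.48% to 10.7% falling and 5.62% to 9.35% rising. With calls of a fitted change of at least 1 only, 65 probes fell and 11 rose, against 7.04% and 5.62% of all tested probes. The stage channel alone, added after the data were seen, gave 58 calls, 49 falling and 9 rising. Over all tested probes in that fit the shares were 8.41%, 4.12% and 4.29%. The ratio of the membership rule gave 52 falling and 12 rising, against 7.76% and 7.56% of all tested probes in that fit. Under the other alternatives the counts lay within 1.5 times of those reported. The fitted change of the 4 named probes kept its sign and its call under every alternative run. Other ways of choosing the set gave 167 to 250 probes, of which 159 to 187 were shared with the 187, and a difference of at least 1.5 left 115. Counts above the blanks and at least 2-fold from sphere moved by less than 1.5 times. No paired analysis was possible because every stage had 1 array. Dim signals at 64-cell and high limit the size of the rise.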
